A study of Mus musculus with 11 samples.

Results

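Cytosolic ribosomal protein genes encode the proteins of the large and small subunits that, with ribosomal RNA, form the ribosome that translates nuclear mRNAs. The genes were taken by name. They are all gene names on the array that begin with Rpl or Rps followed by a number, or with Rplp, without the ribosomal S6 kinases, whose names begin with Rps6k. This rule used no measured value. It found 81 genes of 27962 gene names on the array, and 80 of them were among the 16695 genes that passed the filter on dim probes. These 80 hold 75 standard ribosomal proteins, 45 of the large and 30 of the small subunit. The other 5 were Rps27l, Rpl36al, Rpl22l1 and Rpl7l1, which are named as paralogs of standard proteins, and Rps19bp1, which encodes a binding protein of Rps19 and not a subunit of the ribosome. Rpl3l, known as a muscle paralog of Rpl3, was the member that did not pass the filter.

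Each stage was normal mouse liver, compared by 2-colour Agilent arrays with a common reference. E14 (embryonic day 14) and E18 (embryonic day 18) had 3 arrays each, P5 (postnatal day 5) had replicates 2 and 3, and P56 (postnatal day 56) had 3 arrays. The study's results text names the embryonic stages E14.5 and E18.5, and the labels give no strain, treatment or allele for any stage. Whole liver is given as the source, while the cell type is given as hepatoblasts at E14, immature hepatocytes at E18 and hepatocytes at P5 and P56, so whether embryonic arrays hold isolated cells is not settled here. Liver RNA carried Cy5 and commercial RNA of normal adult mouse liver carried Cy3, with no dyes swapped. The value of a gene is log2(Cy5/Cy3), called its log ratio here, where 0 is the level in the adult reference. Log ratios of different genes come from different probes, so that they rank change against the reference and not amounts of mRNA. The labels call the arrays biological replicates.

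Ribosomal protein mRNAs are abundant and are known to be made and translated in coordination, since a ribosome needs 1 copy of nearly every protein. Many carry a run of pyrimidines (C and T) at their first bases, the 5′ terminal oligopyrimidine tract, through which growth signals control their translation. Fetal liver is both a growing epithelium and the site of fetal blood formation, and blood precursors leave it around birth.

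On the E14, E18 and P5 arrays 22027 to 25718 of 43379 spots were well above background in Cy5, and on the P56 arrays 16790 to 23079. The lowest correlation between 2 arrays of a stage was 0.986 at E14, 0.965 at E18, 0.894 at P5 and 0.826 at P56 over the 23512 probes past the filter. By the file headers, all E14 arrays shared a scan date, called the scan here, with E18 replicate 1, and all P56 arrays shared one with P5 replicate 3. Erythroid markers, checked against the liver cell types that the labels give, had list medians of 2.70 to 3.65 on all E14, E18 and P5 arrays, far above the adult reference.

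Windows around the annotated start were searched for runs of pyrimidines, whether or not a run covers the start. RefSeq promoters of GRCm38.p6 were found for 61 of the 81 members, with 72 promoters in all. A window of 10 bases before the start and the first 20 transcribed bases was searched on the gene's strand for its longest run of C and T. A run of at least 8 bases was in 22 of the 64 promoters of standard members (34.4%), against 11.2% of all 32851 promoters and 8.0% of the 75 promoters of mitochondrial ribosomal protein genes. The windows below are shown for members on which the results turn, 5′ to 3′, with the longest run in capitals.
Rps27, chr3:90213629-90213658 (minus strand): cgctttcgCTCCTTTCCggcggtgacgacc
Rps27l, chr9:66946076-66946105 (plus strand): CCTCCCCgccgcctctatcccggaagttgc
Rpl27a, chr7:109519185-109519214 (plus strand): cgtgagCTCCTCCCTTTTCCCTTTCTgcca
Rpl14, chr9:120571507-120571536 (plus strand): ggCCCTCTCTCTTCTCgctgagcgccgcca
Rps26, chr10:128626487-128626516 (minus strand): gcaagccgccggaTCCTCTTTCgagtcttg
Rpl23, chr11:97782420-97782449 (minus strand): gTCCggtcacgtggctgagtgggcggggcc
The run of Rps27 crosses the start, while that of its paralog Rps27l ends before it. A second RefSeq start of Rps27l holds a run of 4 bases. Of the windows shown, that of Rpl27a held the longest run, 20 bases, and that of Rpl23 the shortest, 3 bases. A run is a description of these letters and says nothing of how a promoter or mRNA is controlled. Runs under 8 bases at a start were not counted, so the shares are not those of mRNAs with the tract.

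The probes for the members are 60 bases long, and 79 of the 80 probes used have a position on mm7, the build of the array design. Of these 79, 78 lie on the chromosome of the RefSeq gene. The probe of Rplp0 is placed on chromosome 8 while the gene is on chromosome 5. Probes are shown for 2 of the members with the largest falls and for members of paralog pairs.
Rpl3, chr15:80164240-80164814 (minus strand): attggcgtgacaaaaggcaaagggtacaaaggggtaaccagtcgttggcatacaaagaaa
Rpl23, chr11:97887360-97890374 (minus strand): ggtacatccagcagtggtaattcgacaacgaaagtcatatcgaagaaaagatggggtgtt
Rpl36a, chrX:129306720-129306779 (plus strand): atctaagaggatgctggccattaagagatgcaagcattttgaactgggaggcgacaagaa
Rpl36al, chr12:67124603-67124662 (minus strand): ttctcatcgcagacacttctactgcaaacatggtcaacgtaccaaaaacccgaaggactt
Rps27l, chr9:66979145-66980835 (plus strand): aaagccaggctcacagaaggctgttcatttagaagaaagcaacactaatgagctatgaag
The spans of the Rpl3, Rpl23 and Rps27l probes are longer than the probes, as for a probe across a splice junction. The best ungapped match between the Rpl36a and Rpl36al probes held 22 identical bases over 55 (40.0%). For Rps27 and Rps27l it held 23 over 56 (41.1%). The paralogs' mRNAs were not compared with each other's probes, so how much signal a pair shares was not tested.

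Across the arrays the set stood highest at E14, and the arrays of a stage differed more after birth. The median log ratio of the 75 standard genes was 1.79, 1.76 and 1.79 on the E14 arrays and 1.26, 1.22 and 1.09 on the E18 arrays. It was 0.72 and 1.20 on P5 replicates 2 and 3, and 0.21, 1.26 and 0.86 on the P56 arrays. The E14 arrays lay above all others and above the E18 arrays without overlap, while the P5 and P56 arrays overlapped the E18 range. Stage means of this median were 1.78 ± 0.0170 (SD, n = 3), 1.19 ± 0.0925 (n = 3), 0.96 ± 0.338 (n = 2) and 0.78 ± 0.530 (n = 3). The stage mean was highest at E14 for 70 of the 75 genes, was lowest at P56 for 52, and dropped at every step for 43. At P56 it was still above 0, the level of the adult reference RNA, for 64 genes.

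**Figure D1:**
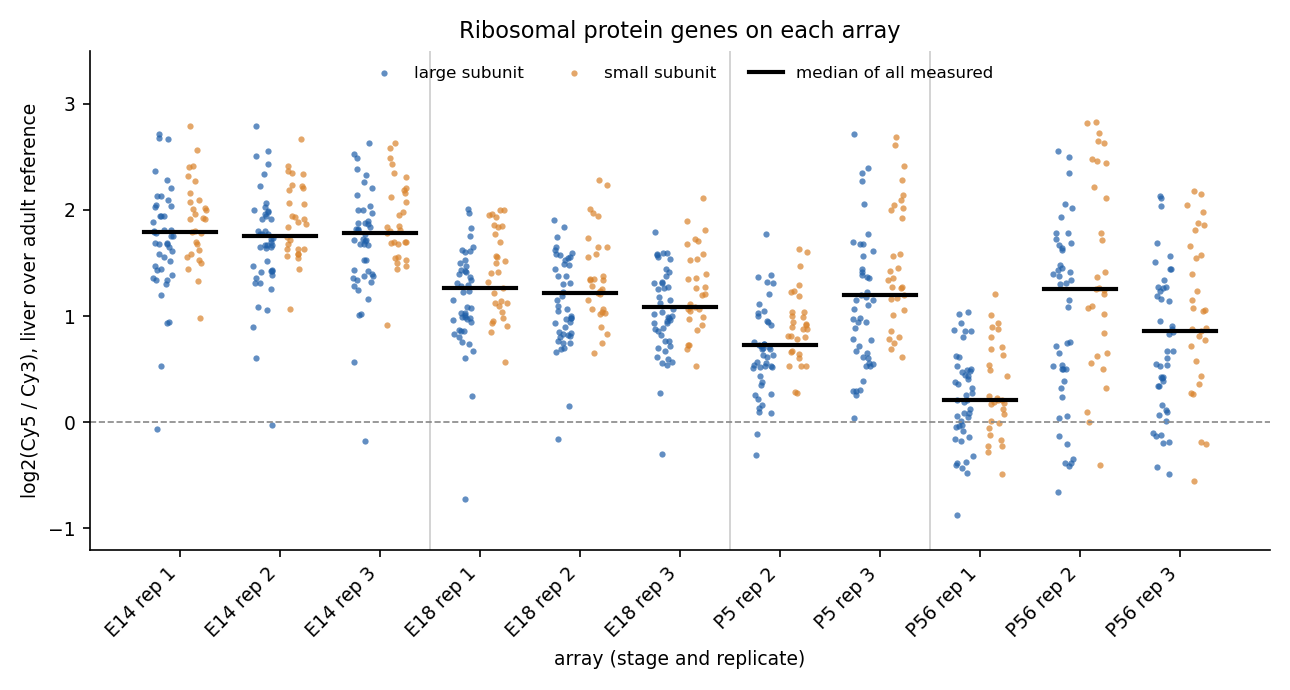
Log ratio (log2 of Cy5 over Cy3) of each standard ribosomal protein gene on each of the 11 arrays, with large subunit genes in blue, small subunit genes in orange and the median of the set as a black line. The medians of the 3 E14 arrays lie between 1.76 and 1.79, and the genes spread widest on P56 replicate 2.

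Small subunit genes stood slightly above large subunit genes on 10 of 11 arrays. The large minus small difference of the medians was -0.16 ± 0.0413 (SD, n = 3) at E14, -0.24 ± 0.0326 (n = 3) at E18, -0.27 ± 0.0195 (n = 2) at P5 and -0.17 ± 0.199 (n = 3) at P56. Since this compares different probes, it gives no ratio of subunits. Between stages, the median change of the large subunit minus that of the small was -0.03 for E18 against E14, -0.11 for P5 against E18, -0.05 for P56 against P5 and -0.05 for P56 against E14. The sign of the first turned to 0.05 both with the mean over all probes of a gene and with the deposited table.

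From E14 to E18, 46 of the 80 members fell and none rose (limma, Benjamini-Hochberg adjustment over all genes tested). Among all genes tested 22.8% were lower and 24.6% higher. At an unadjusted p under 0.05 the count of higher members was still 0, both in limma and by the methods' t-test. The fallers included 30 of 45 large and 13 of 30 small subunit genes and 3 of the 5 other members. The fit shared the spread of a gene over all stages. The median SD between arrays was 0.0656 at E14, 0.110 at E18 and 0.489 at P56. Which genes were called here thus also depended on their P56 spread, and an uncalled gene is not shown to be unchanged. The median change of the standard genes was -0.59, a 1.51-fold lower ratio, with quartiles of -0.78 and -0.38, against -0.01 over all genes. Both subunits shared it, with medians of -0.60 and -0.58. All 3 E18 arrays lay below all 3 E14 arrays for 63 of the 75 standard genes, against 31.5% of all genes.

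The largest fall was that of Rpl14, a large subunit protein, whose log ratio was 2.13, 2.06 and 2.14 on the E14 arrays and 0.86, 0.80 and 0.67 on the E18 arrays. The groups lay far apart, and the difference of -1.33 (SE 0.0975, adjusted p = 5.71e-07) corresponded to a 2.52-fold lower ratio. Rpl3, which lies at the catalytic centre of the large subunit, had 1.58, 1.80 and 1.77 at E14 and 0.86, 0.77 and 0.60 at E18. It fell by 0.98 on the log2 scale (SE 0.156, adjusted p = 0.000302). Rplp0, the core of the acidic stalk that recruits elongation factors and a common reference gene for RT-PCR, had 1.68, 1.65 and 1.67 at E14 and 0.76, 0.74 and 0.56 at E18, again without overlap. Its difference was -0.98 (SE 0.173, adjusted p = 0.000601). Rpl9, another large subunit protein, was also among the 5 largest falls, with a difference of -1.07 (adjusted p = 0.0232).

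Several members with known roles outside the ribosome fell with the set. Rpl5 and Rpl11, which with 5S rRNA form the particle that binds Mdm2, fell by 0.96 (adjusted p = 0.00721) and 0.66 (adjusted p = 0.027). A dim second probe of Rpl11 moved the other way, by 0.49. Rps19, the gene most often mutated in Diamond-Blackfan anaemia, fell by 0.86 (adjusted p = 0.0232), and Rpl13a, another common reference gene, by 0.87 (adjusted p = 0.0195). Rps6, the target of S6 kinases, did not pass the test, with 1.91, 2.23 and 2.35 at E14 and 1.78, 1.74 and 1.59 at E18 (difference -0.47, adjusted p = 0.112). Its arrays did not overlap. Rpl38, known for its part in translating Hox mRNAs, had a difference of -0.12 (adjusted p = 0.751) with overlapping arrays.

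Scanner saturation limited the brightest members. A saturated Cy5 spot was present on at least 1 array for 17 of the 75 standard genes, and for 10 of them on all 3 E14 arrays, while no member spot was saturated in Cy3. Of the 17, 3 fell from E14 to E18 with a median of -0.35, against 40 of the 58 without a saturated spot, whose median was -0.65. Rplp1, Rplp2, Rps12 and Rps23 were saturated on all E14 and all E18 arrays and have no fold here. Rpl27, saturated on all E14 arrays and on no E18 array, was at least 1.51-fold lower at E18 (adjusted p = 0.0444). Rps16, saturated in the same way, had a difference of -0.31 that did not pass the test (adjusted p = 0.251).

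The number of E18 calls depended on the processing more than the direction did. With a normexp offset of 16 in place of 50, 13 members were lower, and with the scanner software's processed signals 18. With the scan as a fixed block 15 were lower, and 24 were lower in the deposited table. Leaving out E14 replicate 2 gave 30 and leaving out E18 replicate 3 gave 26, but counts above that of the main fit also occurred when single arrays were left out. The shares of all genes called were not counted in these settings, so whether the members' counts moved with them was not tested. The median of the standard genes relative to that of all genes stayed between -0.88 and -0.35 in all of these settings and the others tried. Within the scan that held all E14 arrays and E18 replicate 1, the median difference was -0.55 and 69 of 75 genes were lower. Cell type markers moved over the same step. Across the medians of each list, 7 hepatocyte markers rose from between -2.93 and -2.69 at E14 to between -0.75 and -0.45 at E18, 7 of 7 passing the test. The 5 neutrophil markers went from between -0.18 and 0.02 to between 2.98 and 3.02, 5 of 5 passing, and the 10 erythroid markers stood at 3.43 to 3.65 and 3.18 to 3.60, with 3 rising and 1 falling. The part of cell composition in the fall of the set was not tested, and fewer cells of a type cannot be told apart from less RNA per cell.

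**Figure D2:**
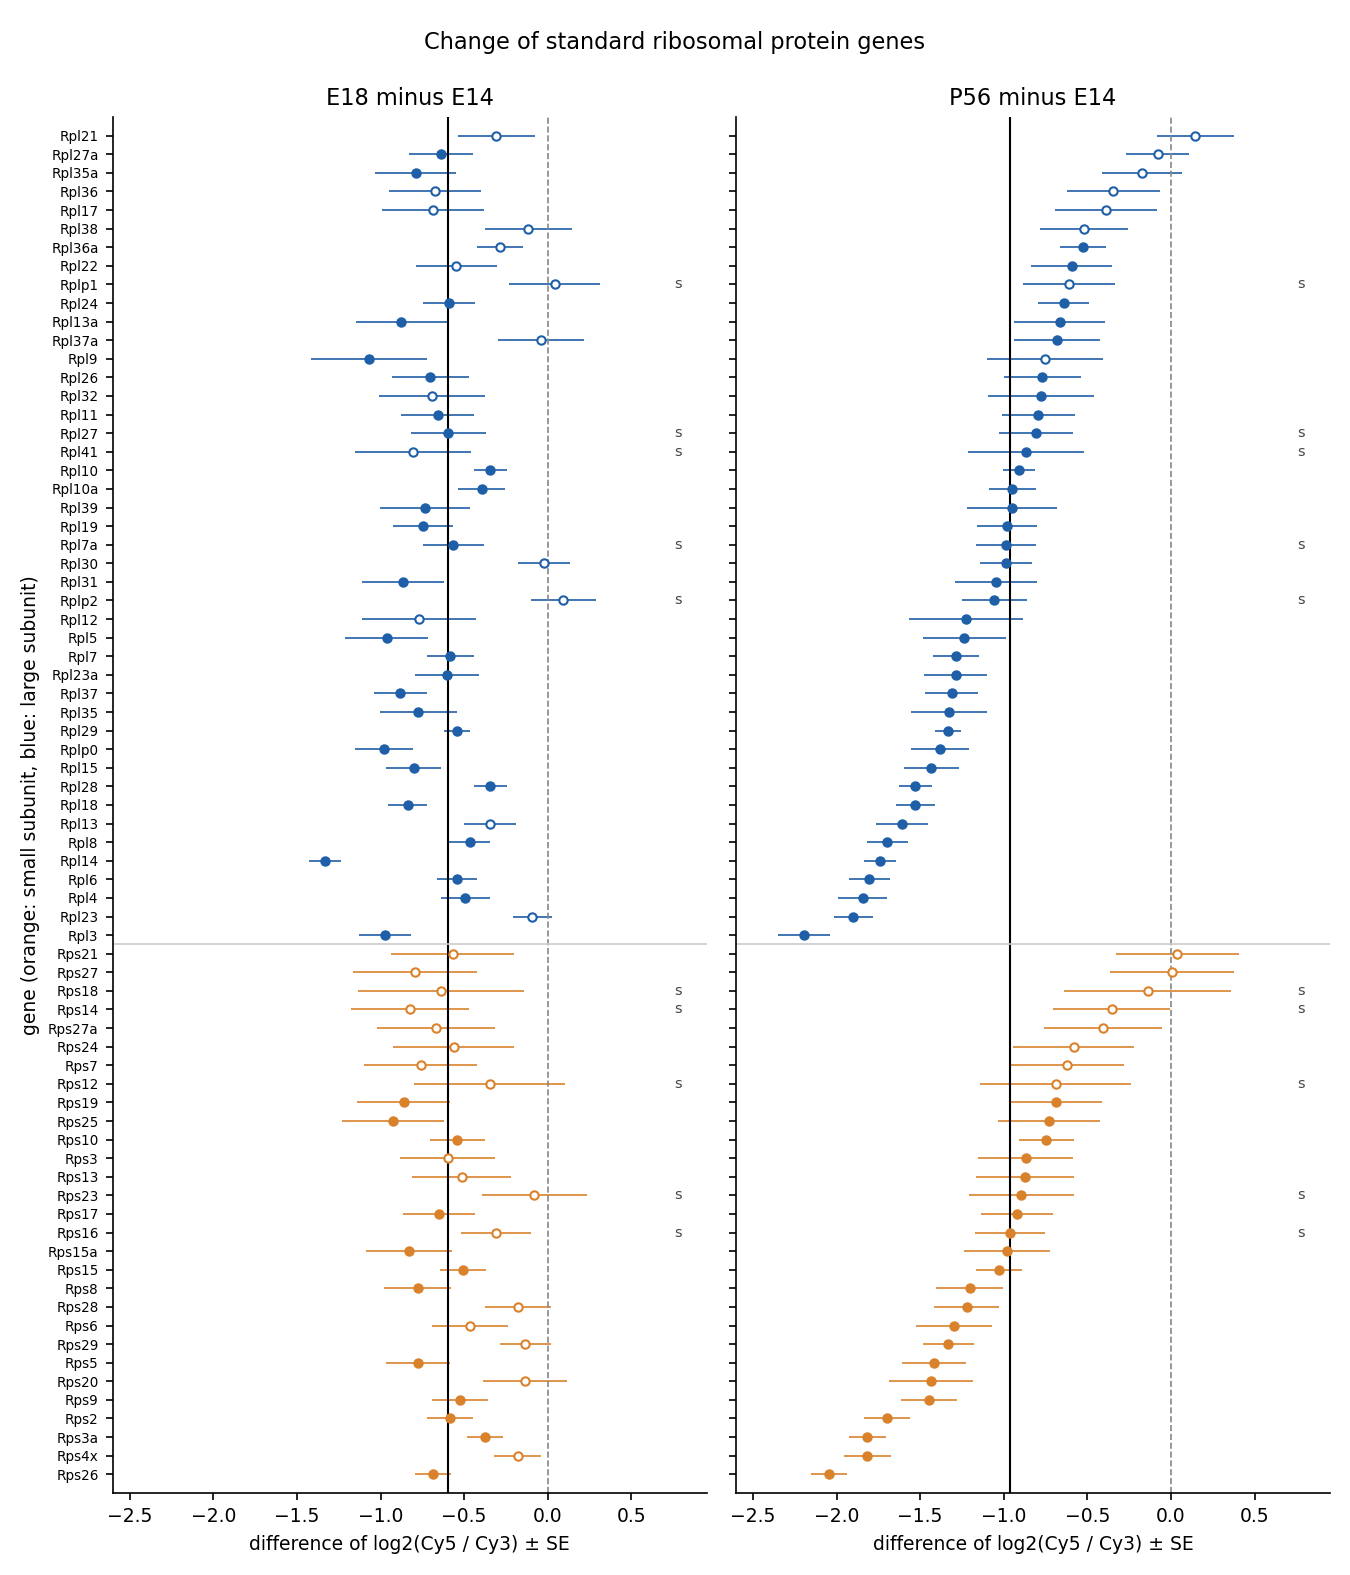
Difference of the log ratio between E18 and E14 (left) and between P56 and E14 (right) for standard genes that are reported by name, with the standard error from limma, large subunit in blue and small subunit in orange. Filled points had an adjusted p under 0.05, the black line is the median of the 75 genes (-0.59 and -0.97), and s marks the 10 genes whose Cy5 spot was saturated on all 3 E14 arrays.

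From E18 to P5 the set moved less, and the result depended on single arrays. No scan held arrays of both stages, so stage and scan cannot be told apart at this step. At P5, 13 of 80 members were lower than at E18 and none was higher, with 6.4% of all genes lower and 7.32% higher. The count of higher members was 0 at an unadjusted p under 0.05 too, by limma and by the methods' t-test. The fallers were 10 large and 3 small subunit genes, and the median change of the standard genes was -0.23. Without P5 replicate 2 this median turned to 0.02 with 8 members lower and 1 higher, and without P5 replicate 3 only 3 members were lower. Without E18 replicate 1 or 2 the count was 7 or 8. Centring each array on its median in place of loess also turned it, to 0.07, with 1 member lower and an all-gene median of 0.01. The deposited table gave no lower member. Blood cell markers moved over this step too, with 3 of 4 B cell precursor markers lower (median -1.19), 3 of 5 neutrophil markers lower (median -0.60) and 2 of 10 erythroid markers lower (median -0.51), and their part was not tested.

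Among the 5 largest falls at P5, Rplp2, the acidic stalk protein P2, was saturated on all E18 and P5 arrays and has no fold. Rpl4, a large subunit protein that lines the exit tunnel, had 1.03, 1.49 and 1.31 at E18 and 0.69 and 0.26 at P5, a difference of -0.80 (SE 0.164, adjusted p = 0.00859). Rpl8 and Rpl23 fell by 0.64 (adjusted p = 0.0108) and 0.68 (adjusted p = 0.00564). Rps4x, the X-linked small subunit gene, differed by -0.66 (adjusted p = 0.0169) on its bright probe, while its dimmer probe, which has no mm7 position, differed by 0.59. Rpl8 and Rps4x read alike on both P5 arrays, while Rpl4 and Rpl23 were lower on replicate 3.

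From P5 to P56 the standard genes showed no stable direction as a set. Of the 5 other members 4 rose, but the methods' t-test, adjusted, called no member higher. Median centring left the rise of Rpl36al uncalled and turned the sign of Rpl7l1. In all, 17 members were lower and 5 higher, against 24.7% and 20.9% of all genes, and the share lower among the members, 21.3%, was close to that background. The median change of the standard genes was -0.24, with 11 large and 6 small subunit genes lower. This median turned to 0.03 without P5 replicate 3 and to 0.01 without P56 replicate 1. It was -0.50 without P5 replicate 2, -0.43 without P56 replicate 2, -0.07 with the Cy5 channel alone and -0.05 over the members with at least 2 probes. Centring on the array median gave 44 members lower and 1 higher, but it also moved the median of all genes to -0.47, and relative to all genes the set's median was -0.26, against -0.22 with loess. Leaving out P56 replicate 2 gave 26 lower. The higher count was 3 without P5 replicate 2 and 8 without P56 replicate 1. Within the scan that held P5 replicate 3 and the P56 arrays, the median difference was -0.50, and 71 of 75 genes were lower. That value rests on the P5 array where the set stood higher, and P5 replicate 2 alone gave the 0.03 above. Erythroid markers dropped over the same step, with 10 of 10 falling and list medians from between 2.70 and 3.31 to between -0.07 and -0.03, and their part was not tested.

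Several of the largest falls at this step read alike on the adult arrays. Rpl23 had 1.20 and 0.98 at P5 and -0.05, 0.06 and -0.13 at P56, with the P56 arrays close together. Its difference was -1.13 (SE 0.129, adjusted p = 2.86e-05), but a dimmer second probe of Rpl23 differed by 0.28. Rps26, a small subunit protein at the mRNA exit channel, had 0.82 and 0.75 at P5 and -0.12, -0.40 and -0.20 at P56 and fell by 1.03 (SE 0.121, adjusted p = 3.92e-05). It has 1 probe. Rps3a, a small subunit protein, fell by 0.92 (adjusted p = 8.95e-05), with both of its probes moving down. Rps4x differed by -0.97 (adjusted p = 0.000384) on the bright probe and by 0.32 on the dimmer one.

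Over the whole interval, 60 of 80 members were lower at P56 than at E14 and 1, Rps27l, was higher. Among all genes 34.8% were lower and 36.1% higher. The fallers were 37 of 45 large and 22 of 30 small subunit genes and 1 other member, Rpl7l1. The median change of the standard genes was -0.97, a 1.95-fold lower ratio, and the arrays of the stages did not overlap for 59 of 75 genes, against 36.8% of all genes. This comparison shares its E14 arrays with that of E18 and E14 and its P56 arrays with that of P56 and P5, and successive steps share the arrays of the stage between them. No scan held both E14 and P56 arrays, so differences between these stages cannot be told apart from differences between scans. Without P56 replicate 1, 2 members were higher. Cell type markers moved over the same interval. All 10 erythroid markers (median -3.56) and all 4 hepatoblast markers (median -4.15) were lower, as were 4 of 5 neutrophil markers (median -2.32). All 7 hepatocyte markers were higher (median 3.41), and the part of these shifts was not tested.

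The genes that fell most ended near or below 0, the level of the adult reference. Rpl3 had 1.58, 1.80 and 1.77 at E14 and -0.87, -0.38 and -0.18 at P56, and the difference of -2.20 (SE 0.156, adjusted p = 1.21e-07) was a 4.58-fold lower ratio. Rps26 had 1.79, 1.93 and 1.69 at E14 against -0.12, -0.40 and -0.20 at P56 and fell by 2.05 (adjusted p = 1.06e-08). Both genes have a single probe and were called lower under every alternative that gave them a value. Rpl4 fell by 1.84 (adjusted p = 3.4e-07) and Rpl23 by 1.90 (adjusted p = 3.13e-08), where the dimmer Rpl23 probe differed by -0.10. Rps4x differed by -1.82 (adjusted p = 2.61e-07) on its bright probe, saturated on 1 E14 array, and by 0.37 on its dimmer one. Among the reference genes, Rplp0 fell by 1.38 (adjusted p = 1.7e-05) and Rpl13a by 0.67 (adjusted p = 0.045). Rps18 was saturated on all E14 arrays, lacked a value on E14 replicate 2 in the fit, and read 0.44, 2.44 and 1.55 on the P56 arrays, 2 of them saturated.

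Rps27l went against the set by P56, after a difference of -0.68 from E14 to E18 beside -0.59 for the set. Its product is a paralog of Rps27, and its gene is known as a p53 target. Its log ratio was 0.57, 0.56 and 0.46 at E14, -0.06, -0.17 and -0.23 at E18, 0.05 and 1.02 at P5 and 1.43, 2.71 and 2.22 at P56. All P56 arrays lay above every other array. They also lay above the adult reference, whose level of 0 was below all E14 arrays too. The rise is thus one between these arrays and not toward the level of that reference, and the reason was not tested. The rise from E14 to P56 was 1.59 (SE 0.285, adjusted p = 0.000344), a 3.00-fold higher ratio, and that from P5 was 1.58 (adjusted p = 0.00175). The first was called under every alternative that gave it a value. The second lost its call only under the methods' t-test. Rps27 itself had 1.96, 1.91 and 1.80, then 1.09, 1.22 and 0.99, then 0.90 and 2.00, and 0.88, 2.63 and 2.18 at P56, with overlapping E14 and P56 arrays and a difference of 0.00 (SE 0.372, adjusted p = 0.992).

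Array by array, the paralog pairs moved apart or together as follows. Rps27l minus Rps27 was -1.36 ± 0.0298 (SD, n = 3) at E14, -1.25 ± 0.118 (n = 3) at E18, -0.91 ± 0.0967 (n = 2) at P5 and 0.22 ± 0.285 (n = 3) at P56. Rpl36al minus Rpl36a was -0.74 ± 0.0608, -0.78 ± 0.158, -0.61 ± 0.103 and 0.04 ± 0.0544 at the same stages. In both pairs every P56 array lay above every E14 array, and the exact two-sided permutation test gave p = 0.1, the smallest that 3 arrays against 3 allow (0.2 after Benjamini-Hochberg adjustment over the 4 pairs tested). The differences for Rpl22l1 minus Rpl22 and Rpl7l1 minus Rpl7 overlapped between E14 and P56 (exact permutation p = 0.6 and 0.2). Rpl36al rose from P5 to P56 by 0.74 (adjusted p = 0.00138), from 0.37 and 0.62 to 0.96, 1.46 and 1.28, although under median centring the difference was 0.17 and not called. Rpl36a fell from E14 to P56 by 0.53 (adjusted p = 0.00495) on its brightest probe, while the other 2 probes differed by -1.12 and -1.09. Rpl7l1 fell from E14 to P56 by 0.69 (adjusted p = 0.000128), though a dimmer probe differed by 0.27. Paralogs of Rpl39, Rpl10, Rpl26 and Rps4x were not analysed here.

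To find members that left the set, each array's median of the standard genes was subtracted and limma was run again over all genes. A gene departed when its remaining difference was at least 0.5 with an adjusted p under 0.05. From E14 to E18, 69 of 75 standard genes had a remaining difference under 0.5 in size. Rpl14 departed downward, by -0.74 (SE 0.276, adjusted p = 0.0293), and Rplp2, with saturated spots, upward. Of all genes 0.581% departed downward and 38.6% upward. No member departed once any 1 E14 or E18 array was left out. Upward departures, read against the spread of all stages, were 5 without P56 replicate 1, 4 without P56 replicate 2 and 0 without P56 replicate 3. From E18 to P5 no member departed, against 0.539% of all genes downward and 2.88% upward. Without P56 replicate 1, 1 member departed each way, and without P56 replicate 2, 1 departed upward. At an unadjusted p under 0.05, limma gave 1 upward and 0 downward departures at that step and the methods' t-test 5 and 2.

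From P5 to P56, Rps27l (1.77, adjusted p = 1.15e-05), Rpl27a (1.11, adjusted p = 0.00511) and Rpl36al (0.92, adjusted p = 0.0257) departed upward and Rpl23 downward (-0.94, adjusted p = 0.031). The shares of all genes were 10.3% upward and 6.95% downward. Rpl27a, a large subunit protein, was the 1 standard gene that rose at this step. Its log ratio was 1.43, 1.42 and 1.38 at E14, 0.74, 0.81 and 0.76 at E18, 0.13 and 0.67 at P5 and 0.93, 1.79 and 1.27 at P56. It was lower at E18 and P5 than at E14, and the P56 arrays overlapped the E14 arrays. The rise from P5 was 0.93 (SE 0.211, adjusted p = 0.00372), but a dim second probe differed by 0.04, and without P5 replicate 2 the rise was 0.66 and not called. The difference was 0.18 with median centring and 0.42 in the deposited table, neither called. The counts at this step moved with single arrays. Upward departures were 1 without P5 replicate 2, 5 without P56 replicate 2 and 6 without P56 replicate 1. Downward ones were 0 without P5 replicate 2 or P56 replicate 3, 2 without P5 replicate 3 and 9 without P56 replicate 1.

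More members departed over the whole interval than at any single step. Among the P56 arrays, the SD over the standard genes exceeded that of the E14 arrays on replicates 2 and 3 only. From E14 to P56, 14 members departed upward and 12 downward, against 69.5% and 6.29% of all genes. The upward ones comprised 5 large subunit genes, 5 small subunit genes and 4 other members. The largest were Rps27l (2.59, adjusted p = 9.98e-12), Rpl36al (1.25, adjusted p = 7.82e-05), Rpl21 (1.15, adjusted p = 0.00124), Rps21 (1.04, adjusted p = 0.000952), Rps27 (1.01, adjusted p = 0.00135) and Rpl27a (0.92, adjusted p = 0.00211). Of these, only Rps27l was itself higher at P56. For Rpl21 a dim second probe differed between E14 and P56 by -1.08 where the bright one differed by 0.15, and 3 alternatives turned its sign. For Rps21 the other 2 probes differed by -0.43 and 0.15.

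The 12 downward departures held 8 large and 4 small subunit genes. The largest were Rpl3 (-1.19, adjusted p = 0.000166), Rps26 (-1.04, adjusted p = 0.00151), Rpl23 (-0.90, adjusted p = 0.0046), Rpl4 (-0.84, adjusted p = 0.00974), Rps4x (-0.81, adjusted p = 0.00836) and Rps3a (-0.81, adjusted p = 0.00842). Leaving out E14 replicate 1, E14 replicate 3 or P56 replicate 3 left 7 downward departures each, and the upward count was 8, 8 and 9 in the same order and 9 without E14 replicate 2. A run of C and T of at least 8 bases was in the windows of 5 of the 9 upward departing genes with a RefSeq promoter, of 2 of the 9 downward ones, and of 22 of the 55 standard genes that had one. These sets are unlike, since the upward genes include the other members Rps27l, Rpl36al, Rps19bp1 and Rpl22l1, the last with a run of 10 bases. The downward genes are all standard.

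**Figure D3:**
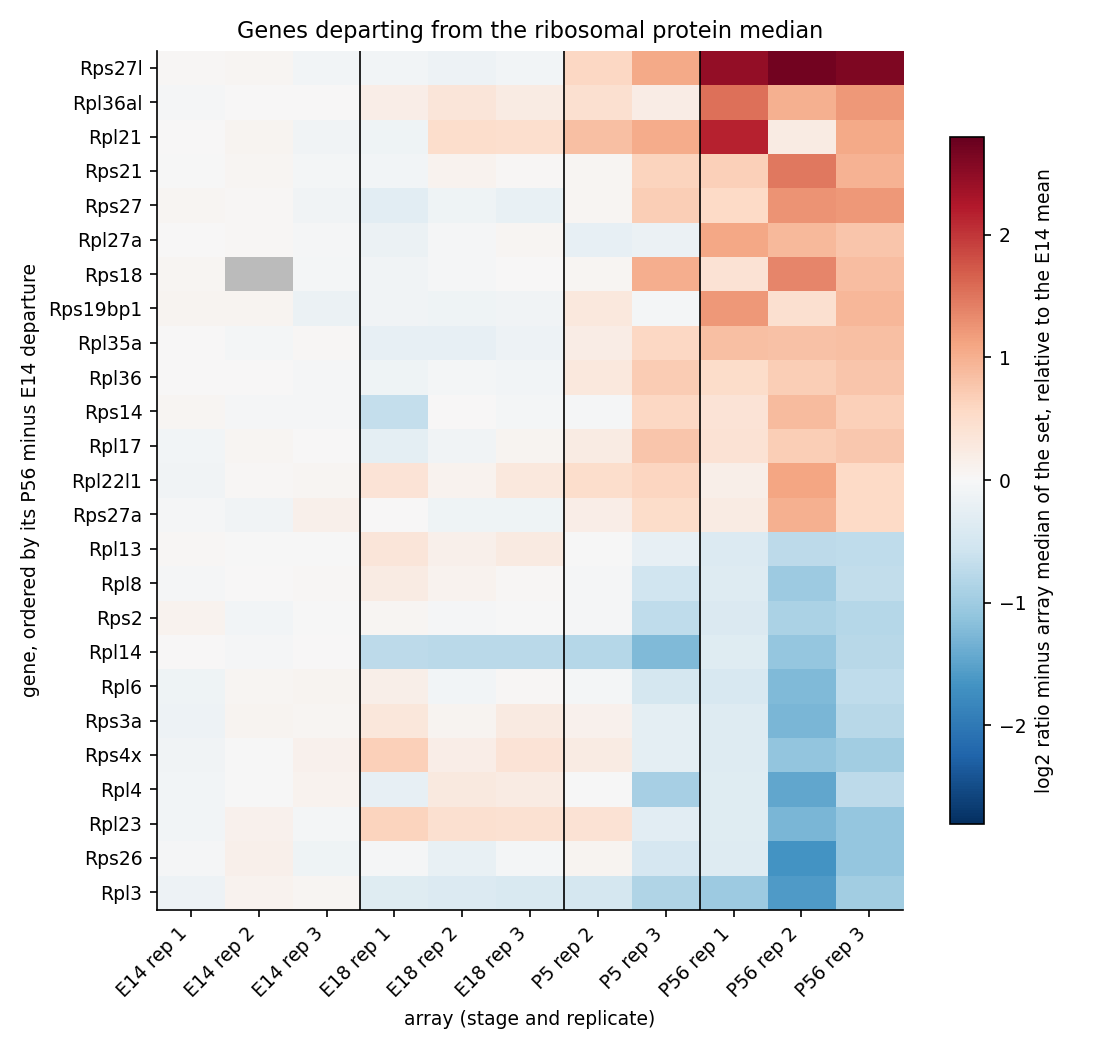
Log ratio minus the array's median of the standard genes, set to 0 at the E14 mean of each gene, for named members that departed from the set between E14 and P56 (rows, ordered by that departure) on the 11 arrays (columns). Red is above and blue below that 0, and grey is a value left out. Rps27l is deepest on the P56 arrays, and for some genes, among them Rpl14 and Rpl4, P56 replicate 1 is paler than P5 replicate 3.

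On P5 replicate 3 and on P56 replicates 2 and 3 the genes of the set spread more widely than on the other arrays. The SD of the log ratios over the 75 genes was 0.46 to 0.48 on the E14 arrays and 0.41 to 0.46 on the E18 arrays. It was 0.41 and 0.64 on P5 replicates 2 and 3, and 0.44, 0.91 and 0.72 on the P56 arrays. Gene by gene, the median SD between arrays of 1 stage was 0.0656 at E14, 0.110 at E18, 0.365 at P5 and 0.489 at P56.

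The genes that differed between the P5 arrays were largely those that differed between P56 replicates 1 and 2, the adult pair farthest apart, which was chosen after its values were seen. P56 replicate 2 minus replicate 1 had a median of 0.95 over the 75 genes. P5 replicate 3 minus replicate 2 had a median of 0.52. Of the 75 genes, 62 had no saturated Cy5 spot on any P5 or P56 array, a limit set after seeing the data. Over these 62 the P56 difference ranged from -0.88 for Rpl21 to 1.85 for Rps21, with 26 genes over 1, and the P5 difference was -0.44 for Rpl4, the lowest, and highest for Rps27. Rps21 and Rps27 were near the top of both, and Rpl4, Rps26 and Rpl23 were near the bottom of both. Across the 75 genes the differences correlated with Pearson's r of 0.793 and Spearman's rho of 0.843, and across the 62 with 0.751 and 0.811. Rps12 and Rps18, whose differences were larger still, were saturated on both P5 arrays and on 2 of the 3 P56 arrays, so that their size is not given. Across the 75 mitochondrial ribosomal protein genes r was 0.744, and across 16649 genes of all kinds it was 0.215. Genes are not independent replicates, the 4 arrays share the reference RNA, and P5 replicate 3 shares its scan with the P56 arrays. The same measure between 2 E14 arrays and between 2 E18 arrays, replicates 1 and 3 of each, had medians of 0.00 and 0.15. They correlated with the P56 difference at r of 0.193 and -0.038 and with the P5 difference at r of 0.341 and -0.315. On the P56 arrays 23079, 16790 and 20131 spots were well above background in Cy5, the fewest on replicate 2, and the part of this in the spread was not tested.

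**Figure D4:**
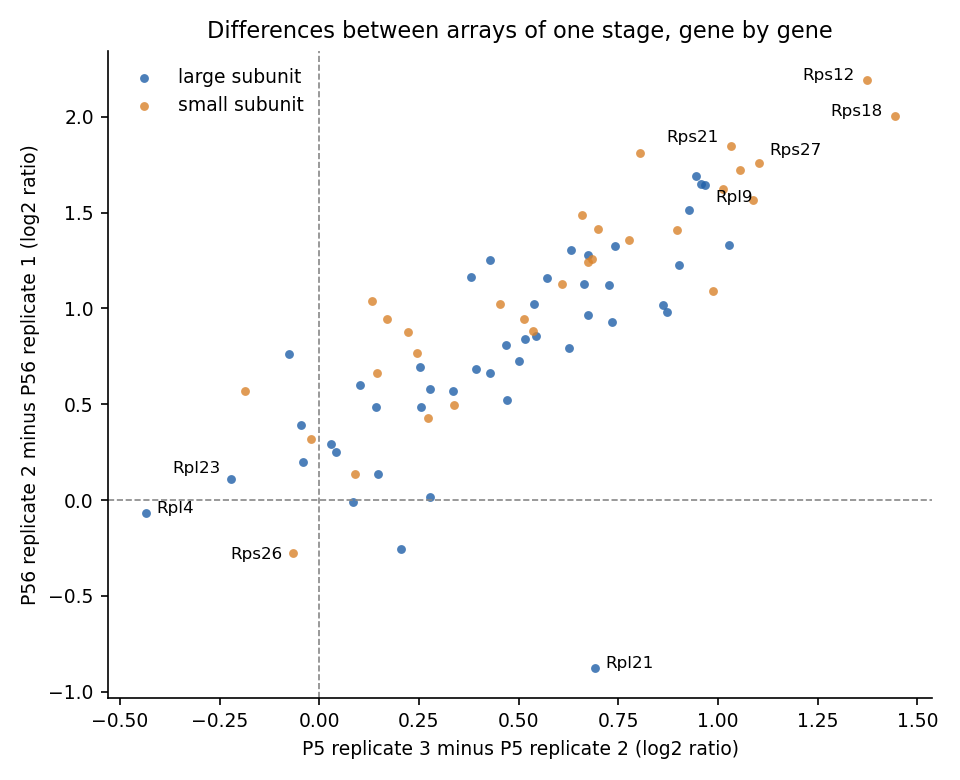
For each of the 75 standard genes, the difference in log ratio between the 2 P5 arrays (x axis) and between P56 replicates 2 and 1 (y axis), with large subunit genes in blue and small subunit genes in orange. Rps21 and Rps27 lie at the upper right, with Rps12 and Rps18, which have saturated spots, beyond them, Rpl4, Rpl23 and Rps26 at the lower left, and Rpl21 stands apart with -0.88 on the y axis.

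Brightness and base composition of the probes were weakly related to the changes. Over the 75 genes, the change from E14 to E18 correlated with mean probe brightness at a Pearson's r of 0.388 (Spearman's rho 0.317), and with the GC share of the probe at -0.061. For the change from E14 to P56 these were 0.205 and -0.068. Of the 38 members with at least 2 probes past the filter, probes of 1 gene differed by a median of 0.17 in the E18 against E14 change and 0.36 in the P56 against E14 change, and had opposite signs for 3 and 7 genes. For P5 against E18 and P56 against P5 the medians were 0.14 and 0.28, with opposite signs for 10 and 14 genes.

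Other genes of ribosome production were measured on the same arrays. Of 4 ribosomal proteins named otherwise, 3 were lower at P56 than at E14, among them Rpsa at -0.91 (adjusted p = 0.00479) and Gnb2l1, which encodes the scaffold Rack1, at -1.06 (adjusted p = 0.0061). Fau, which encodes a small subunit protein as a fusion, had -0.32 (adjusted p = 0.318). From E14 to E18, 8 of 8 genes of RNA polymerase I transcription fell, with a median of -0.62, as did 6 of 7 snoRNP proteins, with a median of -1.01, and 37 of 45 factors of pre-ribosome assembly, with a median of -0.71. Npm1, a nucleolar chaperone of ribosome export, fell by 1.43 (adjusted p = 3.52e-06), from 3.76, 3.80 and 3.90 to 2.65, 2.30 and 2.22.

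Translation factors gave 16 of 27 initiation factors lower and 2 higher at E18, with a median of -0.45, and 6 of 11 elongation factors lower, with a median of -0.53. A list of mTOR and Myc genes, the pathway known to drive ribosome production, had 6 of 19 higher and 6 lower. Its median was 0.04, with changes from -0.69 to 1.42, beside 24.6% of all genes higher and 22.8% lower. Mycn, a Myc family gene, fell by 0.69 (adjusted p = 0.0118) and Myc by 0.54 (adjusted p = 0.00635). Both were named after their values were seen, and list members that rose are not named. A list of p53 and its targets, which respond to free ribosomal proteins, had 2 of 7 higher and 2 lower, with a median of 0.25. By P56 the fall against E14 had reached 42 of 45 assembly factors, with a median of -1.35 and 1 higher, 6 of 7 snoRNP proteins with a median of -2.26 and 24 of 27 initiation factors with a median of -1.23 and 1 higher. Nucleolin (Ncl), which binds nascent ribosomal RNA, ended at -1.27, -2.11 and -1.64 on the P56 arrays from 2.22, 2.06 and 2.38 at E14.

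Mitochondrial ribosomal protein genes, the 75 genes that serve the other ribosome of the cell, were set beside the cytosolic set. From E14 to E18, 57 of 75 were lower and 1 higher, with a median of -0.55 beside -0.59 for the cytosolic set. From E18 to P5, 8 were higher, with a median of 0.19 beside -0.23. From P5 to P56, 45 were higher, with a median of 0.47 beside -0.24. At P56 the medians of this list on the 3 arrays were 0.57, 0.91 and 0.73, and at E14 they were 0.67, 0.59 and 0.56, so that the stages overlapped. These are counts and medians of 2 lists and no test compared them.

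**Figure D5:**
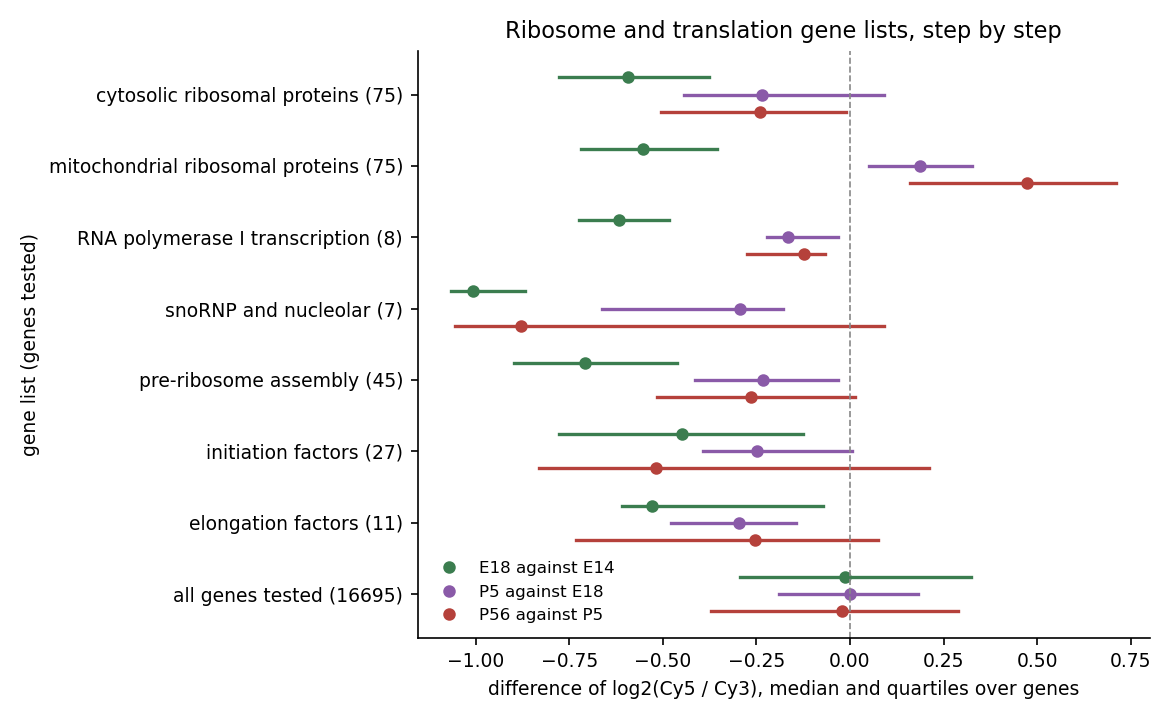
Median (point) and quartiles (line) of the change in log ratio over the genes of each list, for E18 against E14 in green, P5 against E18 in purple and P56 against P5 in red, with the number of genes tested in brackets. The cytosolic and mitochondrial ribosomal protein genes lie together at -0.59 and -0.55 for the first step and on opposite sides of 0 for the later steps, where the cytosolic median turned sign when single arrays were left out.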

How the data were processed

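Gene expression in normal mouse liver was measured on 11 two-colour Agilent arrays. The deposited scanner files hold spot intensity, made by the authors with Feature Extraction 9.5.1.1 and not normalized between arrays. The deposited table of log2 ratios was lowess normalized by the authors, who averaged the probes of a gene per the file header, and it was used only as an alternative. Their methods name limma. Columns of per-sample values without a sample numbered 0.

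Mean signals were corrected for median local background (normexp, offset 50). They were normalized within each array by loess (span 0.3), with control and outlier spots at weight 0 and outlier spots then left out. Repeat spots were averaged per probe. The filter on dim probes asked that the Cy5 spot exceed background clearly on every array of some stage, with at most 1 value lacking per stage. The brightest probe stood for a gene, with no regard to the change it showed. Log ratios of 16695 genes of the 11 arrays were fitted together (limma 3.58.1, R 4.3.3), and p-values were adjusted by Benjamini-Hochberg over all genes, with a threshold of 0.05. Every adjusted p in the text comes from limma. The number of arrays limits the precision, and p-values measure the spread, pooled over the stages, between arrays that the labels call biological replicates. Departures from the set were fitted in the same way after subtracting each array's median of the standard members, with a smallest difference of 0.5. The fit was also run on simulated data for E18 against E14, with the same spread of a gene at every stage. That run does not cover the larger spread seen at P5 and P56.

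The members and gene lists were chosen with earlier results of these data known. Named genes were, in each comparison, the 5 largest rises and falls of standard members that passed the test without overlap, up to 6 departures each way, paralog pairs, genes known for uses outside the ribosome, and ribosomal proteins named otherwise. Myc, Mycn, Npm1 and Ncl were named after their values were seen, as were the genes at the ends of the ranges between arrays. Alternatives covered background correction, normalization, probe choice, saturation, scan, the replicate block, the methods' t-test, the arrays fitted and leaving out each array. Promoters and probe positions came from RefSeq (GRCm38.p6) and the file headers (mm7). Results for 3 genes are not reported here by name, though the genes stay in all counts and fits. The same replicate numbers did not pair the samples.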

Additional observations from a re-analysis of the deposited data

How the results depend on the processing

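The E18 and P56 falls against E14 kept the sign of their medians under every alternative run. Under every alternative that gave them a value, Rpl14, Rplp0 and Rpl3 (E18 against E14) and Rpl3, Rps26, Rpl23, Rpl4 and Rps27l (P56 against E14) kept their calls. Saturated spots, 2 P5 arrays and probes that disagree limit the rest, and the causes of the shifts below were not tested. In what follows, up and down are members departing from the set. Counts are of members only, since the shares of all genes called were not counted under the alternatives.

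Median centring gave medians of -0.86 (E18 against E14), 0.068 (P5 against E18), -0.73 (P56 against P5) and -1.34 (P56 against E14). It gave 1 lower at P5 and 1 higher and 44 lower for P56 against P5, with 3 up and 0 down at E18, and 5 up and 3 down from P5 to P56. The Cy5 channel alone gave an E18 median of -0.67, large minus small differences of -0.18 (E18) and -0.038 (P5) and 8 lower at P5. Departures there were 2 up and 10 down at E18, 1 up at P5, 8 up and 5 down from P5 to P56 and 22 down from E14 to P56. A normexp offset of 16 gave an E18 median of -0.35 with 13 lower, a P5 large minus small difference of -0.14 with 6 lower, and 2 higher from E14 to P56. Processed signals gave -0.42 with 18 lower at E18, -0.14 with 3 lower at P5 and 2 higher from E14 to P56. Departures were then 3 up at E18, 1 up at P5 and 8 up and 2 down from P5 to P56.

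Averaging all probes gave a large minus small difference of 0.046 at E18, with 4 up there and 1 up at P5. Members with at least 2 probes gave 24 lower at E18, 4 lower at P5, 1 higher and 9 lower from P5 to P56, and 0 higher and 26 lower from E14 to P56. Departures were 0 down at E18 and 8 up and 6 down from E14 to P56. Without saturated probes the P5 large minus small difference was -0.16, with 4 up at E18, 1 up at P5 and 3 down from P5 to P56. With no filter 0 were up at E18, and with a filter on all arrays 2 were up.

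The scan as a fixed block, which could be fitted only for E18 against E14 and P56 against P5, gave a large minus small difference of -0.071 and 15 lower at E18 with 0 up and 0 down. From P5 to P56 it gave 2 higher, 1 up and 0 down. The random block gave 4 up at E18, 1 up at P5 and 3 down from P5 to P56. The replicate block gave 0 up at E18, 9 lower at P5 and a P5 large minus small difference of -0.064. Correlations of same-numbered arrays' deviations ran from -0.256 to 0.0845 over 9 pairs. The deposited table gave a large minus small difference of 0.053 at E18, with 24 lower and 3 up there, 0 lower and 1 up at P5, 5 up and 3 down from P5 to P56, and 2 higher from E14 to P56. Only the arrays compared gave 5 up at E18, 1 up at P5, 11 lower with 1 up and 0 down from P5 to P56, and 9 up from E14 to P56.

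The methods' t-test, adjusted, gave 3 up at E18, 0 lower at P5, 0 higher, 0 lower, 0 up and 0 down from P5 to P56, and 4 down from E14 to P56. Unadjusted it gave 5 up at E18, 20 lower with 5 up and 2 down at P5, and 2 higher, 9 lower and 0 down from P5 to P56.

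Leaving out 1 array gave 26 to 62 lower at E18, with 0 to 5 up and 0 to 1 down. At P5 it gave 3 to 18 lower, 0 to 1 higher, 0 to 1 up, 0 to 1 down, a median of -0.40 to 0.020 and a large minus small difference of -0.15 to -0.035. From P5 to P56 it gave a median of -0.50 to 0.033, 3 to 8 higher, 14 to 26 lower, 1 to 6 up and 0 to 9 down. From E14 to P56 it gave 1 to 2 higher, 8 to 18 up and 7 to 17 down.

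Single genes turned sign as follows. Rpl11 was 0.33 (E18) and 0.50 (P56 against E14) in the deposited table. Rpl21, P56 against E14, was -0.47 with probes averaged, by either rule, and -0.77 in the deposited table. Rps4x without saturated probes was 0.59 (P5), 0.32 (P56 against P5) and 0.37 (P56 against E14), and 0.041 (P5) in the deposited table. Median centring turned P56 against P5 for Rpl14 (-0.81), Rpl36a (-0.36), Rpl7l1 (-0.52) and Rpsa (-0.61).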
